A study of Mus musculus with 24 samples.

Results

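The integrated stress response genes described here were 10 genes of the mouse medial prefrontal cortex (mPFC), chosen by symbol for their textbook place in this pathway with earlier results of these data known. All 10 were found among the 15456 genes of the normalized count table, and all 10 passed the filter on low values, a mean of 10 or more normalized counts, that left 14974 genes to test. The RNA came from the dissected mPFC of 24 male BALB/C mice (BALB/c OlaHsd per the study's methods), 11 weeks old, with 6 mice and 6 libraries in each group. The control group, labelled as untreated, received PBS per the study's methods. The duloxetine group received this antidepressant, an inhibitor of serotonin and norepinephrine reuptake, by daily intraperitoneal injection, the *R. flavefaciens* group received the gut bacterium *Ruminococcus flavefaciens* by gavage, and the combined group received both. No group carried a genetic change. The comparisons ask how the drug, the bacterium and their combination move gene expression in this cortical region. The number of reads recovered per library, which stands for depth, lay between 12811413 and 15607343, and the lowest library belonged to the *R. flavefaciens* group.

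In the integrated stress response, kinases that sense a specific stress phosphorylate the alpha subunit of the translation factor eIF2. General protein synthesis then slows, while the mRNA of the transcription factor ATF4 is translated better, and ATF4 turns on genes for amino acid synthesis, amino acid transport and the redox state. Phosphatase complexes built on PPP1R15A or PPP1R15B remove the phosphate again and end the response. In the brain the pathway is known for its influence on synaptic plasticity and memory. Much of it acts through phosphorylation and translation, which mRNA counts do not measure.

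*Ppp1r15b*, the constitutive phosphatase subunit, was lower with duloxetine averaged over mice with and without the bacterium, a change of -12.5 percent, and it was the only member that passed in limma fitted over all mice. *Ppp1r15a*, the stress-induced subunit, was highest on average in the *R. flavefaciens* group, without passing in that fit. Among the kinases, transcription factors and biosynthetic enzymes, fitted differences from control were at most 15.8 percent in size and no gene passed in limma.

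The tissue label was looked at first, with markers that cannot tell the mPFC from other cortical areas. All 8 markers listed for excitatory cortical neurons were present, with summed normalized counts between 95967 and 113873 per mouse. *Camk2a* was the most abundant of them. Certain libraries stood apart. *R. flavefaciens* mouse 8_4 had a summed count of 7980 for 8 striatal markers, where the median of its group was 2636 and that of the controls 2891, and a sum of 791 for 3 choroid plexus markers, where the control median was 50.3. *R. flavefaciens* mouse 9_3 deviated most from its group, by a median absolute difference of 0.164 on the log2 scale over all genes tested, against 0.0671 to 0.0861 in the 6 controls. Combined mouse 11_4 was next for striatal markers, at 4904. For mouse 9_3 the sum of 10 astrocyte markers, 58897, was the lowest of all mice. The values of the members and of the named list genes that rest on the *R. flavefaciens* group were therefore also computed without mice 8_4 and 9_3, an alternative added after seeing the data.

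Across the whole table, the fit in limma at an adjusted p (Benjamini-Hochberg) under 0.05 called 0% of genes for duloxetine against control, 0.0267% for *R. flavefaciens* against control and 0.1% for the combined group against control. It called 0% for the combined against the duloxetine group and 2.23% for the combined against the *R. flavefaciens* group. For duloxetine averaged over both bacterial conditions it called 1.03%, for *R. flavefaciens* averaged over both drug conditions 0.0267%, and for the interaction of both treatments 0%. Of the 10 stress response genes, 1 was called in the combined group against control, 1 in the combined against the *R. flavefaciens* group and 1 in the average for duloxetine, each time *Ppp1r15b* and each time lower. In the other 5 comparisons limma called 0 of 10. edgeR called the same gene in the same 3 comparisons and no other, and DESeq2 added *Atf4* in 2 comparisons described below for that gene. In the 3 comparisons with a call of *Ppp1r15b*, in the order above, edgeR called 0.114%, 2.18% and 0.935% of all genes and DESeq2 1.45%, 4.07% and 2.12%.

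At an unadjusted p under 0.05, limma had 3 of the 10 genes for duloxetine against control, beside 3.83% of all genes, 4 for *R. flavefaciens* against control, beside 19.6%, and 5 for the combined group against control, beside 16.8%. It had 0 of 10 for the combined against the duloxetine group, beside 5.9%, and 2 for the combined against the *R. flavefaciens* group, beside 19.7%. The counts were 2 for the duloxetine average, beside 14.9%, 4 for the *R. flavefaciens* average, beside 18.1%, and 2 for the interaction, beside 7.53%. Because the genes were picked with results of these data known, these counts describe the list and test nothing. The median log2 fold change over the 10 genes was -0.02 for duloxetine, 0.14 for *R. flavefaciens* and 0.05 for the combined group, each against the same 6 controls, where the medians over all genes tested were -0.00184, 0.00313 and 0.000724. After removal of a trend with transcript length, the median for *R. flavefaciens* was 0.085.

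**Figure D1:**
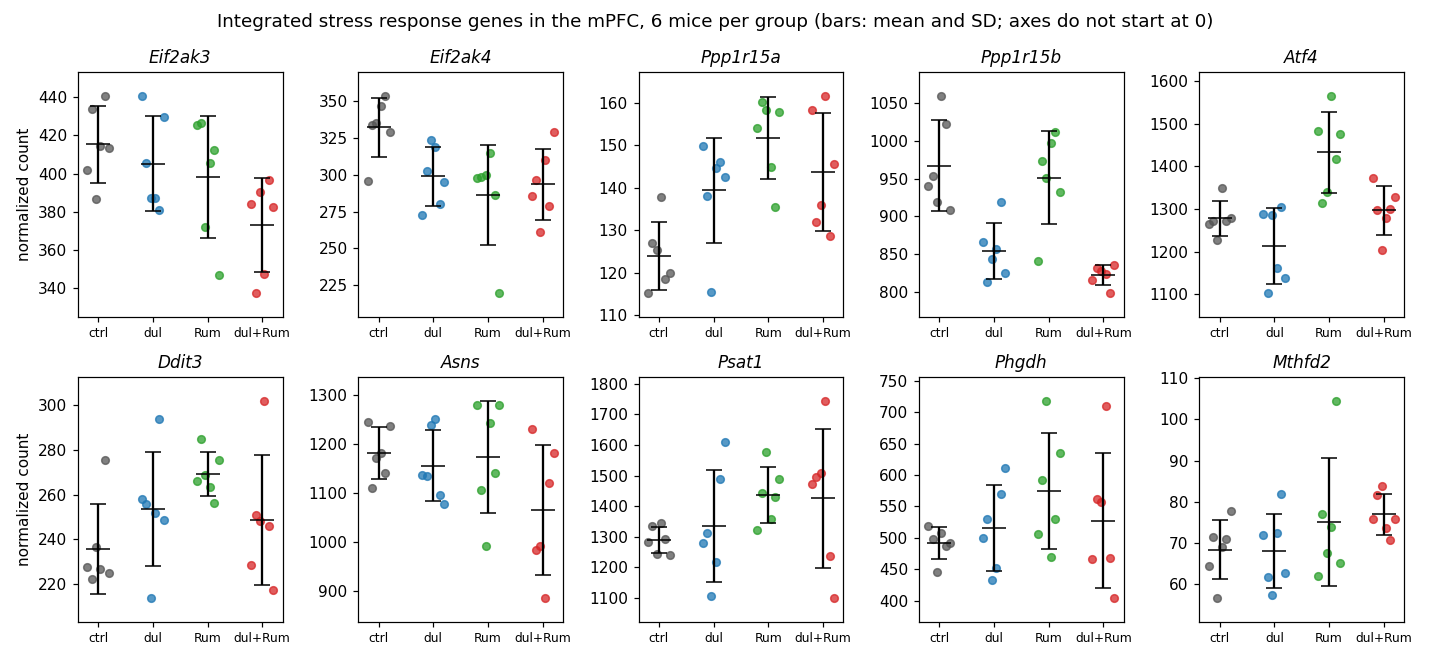
Normalized counts (y axis, a separate scale for each gene that does not start at 0) of the 10 genes in each mouse of the control (ctrl), duloxetine (dul), *R. flavefaciens* (Rum) and combined (dul+Rum) groups, with 1 point per mouse and bars for the mean and SD of 6 mice. The 6 combined mice lay between 799 and 836 for *Ppp1r15b*, below every control mouse.

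Of the phosphatase subunits, *Ppp1r15b* passed in limma fitted over all mice and *Ppp1r15a* did not. *Ppp1r15b* (ENSMUSG00000046062.5, chr1:133131143-133139783, + strand, GRCm38) encodes the subunit that is made without stress and holds eIF2 phosphorylation low in resting cells. In control mice its lowest, median and highest normalized counts were 909, 947 and 1060.5. With duloxetine they were 813, 850.4 and 919. The *R. flavefaciens* group had 841, 962 and 1012, and the combined group 799, 825 and 836. Every combined mouse lay below every control mouse and below every mouse given the bacterium alone, and 5 of 6 duloxetine mice lay below the lowest control. The combined group was also the tightest, with an SD of 13.5 around a mean of 822 (n = 6), where the controls had 968 ± 60.6 (SD, n = 6).

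On the scale of log2(normalized count + 1), *Ppp1r15b* fell by 0.23 in the combined group against control (SE 0.0471, limma adjusted p = 0.0438), a change of -14.9 percent. Against the *R. flavefaciens* group it fell by 0.21 (SE 0.0471, limma adjusted p = 0.0216). Averaged over both bacterial conditions, duloxetine lowered it by -0.19 (SE 0.0333, limma adjusted p = 0.00537). For duloxetine alone the difference was -0.18 (95% interval -0.28 to -0.08, limma adjusted p = 0.907), which did not pass although only 11 genes in the table had a smaller p. For *R. flavefaciens* alone it was -0.02 (95% interval -0.12 to 0.07), and the interaction was -0.03 (95% interval -0.17 to 0.11, limma adjusted p = 0.927).

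These calls differed in how firmly they held. The average for duloxetine kept its adjusted p under the threshold in all 24 fits that left out 1 mouse, between 0.00152 and 0.0166, and in all 10 other settings run. The call of the combined group against control was lost in 13 of the 24 fits that left out 1 mouse, with adjusted p between 0.0502 and 0.125. Those mice were 1_1, 2_1, 2_3 and 3_1 of the controls, 5_3, 5_4 and 6_1 of the duloxetine group, 8_3 and 9_1 of the *R. flavefaciens* group, and 10_2, 11_3, 11_4 and 12_2 of the combined group. It was also lost under quantile normalization (0.0808) and rescaling to the 75th percentile (0.0684). Without mice 8_4 and 9_3 it was 0.0204. The call against the *R. flavefaciens* group was lost without mouse 9_1 (0.0517) or 11_3 (0.0569) and when only the groups compared were fitted (0.126), and was 0.0269 without mice 8_4 and 9_3. The log2 fold changes stayed between -0.25 and -0.20 in all fits of the combined group against control.

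*Ppp1r15a* (ENSMUSG00000040435.12, chr7:45522916-45526268, - strand, GRCm38), also called GADD34, encodes the subunit that the stress response itself induces, which closes a feedback loop. Its level per kilobase of exon was lower than that of *Ppp1r15b*, 47.6 against 161 mean normalized counts per kilobase over the 24 mice. Its lowest, median and highest normalized counts were 115.3, 123 and 138 in control mice, 115.4, 144 and 149.8 with duloxetine, 136, 156 and 160.1 with *R. flavefaciens*, and 129, 141 and 162 in the combined group. Above the highest control lay 5 of 6 duloxetine mice, 5 of 6 *R. flavefaciens* mice and 3 of 6 combined mice. The lowest duloxetine mouse, 5_4, lay within the control range.

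Against control, the log2 difference of *Ppp1r15a* was 0.29 with *R. flavefaciens* (95% interval 0.13 to 0.45, limma adjusted p = 0.073), 0.16 with duloxetine (95% interval 0.01 to 0.32, limma adjusted p = 1.00) and 0.21 in the combined group (95% interval 0.05 to 0.37, limma adjusted p = 0.192). None passed. The combined group differed from the *R. flavefaciens* group by -0.08 (95% interval -0.24 to 0.08) and from the duloxetine group by 0.04 (95% interval -0.12 to 0.20). The interaction was -0.25 (95% interval -0.47 to -0.02, limma adjusted p = 0.639) and did not pass. In the *R. flavefaciens* comparison the limma adjusted p was 0.0487 with a random block for the first label number, whose consensus correlation was -0.0451. No first label number was shared between groups, and a negative correlation within such blocks lowers the fitted error of a group difference. The adjusted p of limma was 0.0342 without mouse 9_2, and it was 0.429 without mice 8_4 and 9_3, where the difference was 0.26.

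The palindrome TGACGTCA, the cAMP response element that factors of the CREB and ATF family bind, was searched on both strands of RefSeq promoter windows (GRCm38.p6), which reach from 250 bases before to 50 bases after each gene's start. It was in 1.79% of 32851 windows and, of the 9 members matched by symbol, which were all but *Ppp1r15b*, in *Ppp1r15a* only. The match is shown because it lies beside the start of the gene with the highest difference of the list, at chr7:45526262-45526291 on the - strand. The motif, in capitals, begins 12 bases before the start. A match describes the letters of the window and was not tested as a site.
Ppp1r15a: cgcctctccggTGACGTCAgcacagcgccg

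The subunits did not vary together between mice of the same group (Pearson r = 0.09, Spearman rho = 0.18, 24 mice, group means removed). Their proportion is given for each mouse as *Ppp1r15a* counts per 100 *Ppp1r15b* counts, not corrected for gene length. It was 11.6, 13.1 and 13.6 in control mice (lowest, median, highest), 13.7, 16.9 and 17.3 with duloxetine, 13.4, 16.5 and 18.3 with *R. flavefaciens*, and 15.9, 16.9 and 19.6 in the combined group. All 6 duloxetine mice and all 6 combined mice lay above the highest control, as did 5 of 6 *R. flavefaciens* mice. The lowest duloxetine mouse exceeded the highest control only narrowly, 13.67 against 13.65. This proportion was formed after the values of both genes were seen and is a description.

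**Figure D2:**
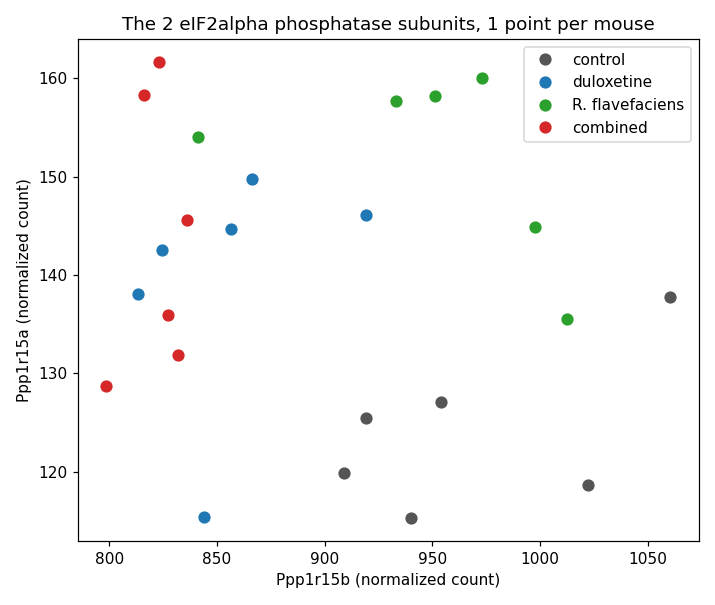
Normalized counts of *Ppp1r15b* (x axis) and *Ppp1r15a* (y axis), with 1 point per mouse coloured by group and axes that do not start at 0. The combined mice sit at the left, at 836 or less for *Ppp1r15b*, and the controls at the lower right, at 138 or less for *Ppp1r15a*.

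As a background for groups that do not overlap, 0.334% of all genes tested had every duloxetine mouse on 1 side of every control, 1.62% had this for *R. flavefaciens*, 2.04% for the combined group, 0.254% for the combined against the duloxetine group and 1.44% for the combined against the *R. flavefaciens* group. Of the 10 genes the counts were 0, 0, 1, 0 and 1, and both were *Ppp1r15b*.

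The transcription factors had their highest group means in the *R. flavefaciens* group, without passing in limma. *Atf4* (ENSMUSG00000042406.7, chr15:80255184-80257540, + strand), the central activator of the response, had 1227, 1272 and 1350 normalized counts in control mice (lowest, median, highest), 1103, 1224 and 1305 with duloxetine, 1314, 1445 and 1566 with *R. flavefaciens*, and 1203, 1298 and 1373 in the combined group. Of the mice given the bacterium alone, 4 of 6 lay above the highest control and 4 of 6 above the highest mouse of the other groups. With 553 mean normalized counts per kilobase of exon, *Atf4* had the highest level per length of the 10 genes.

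The log2 difference of *Atf4* against control was 0.16 with *R. flavefaciens* (95% interval 0.06 to 0.26, limma adjusted p = 0.0924), -0.08 with duloxetine (95% interval -0.18 to 0.02) and 0.02 in the combined group (95% interval -0.08 to 0.12). The combined group was -0.14 against the *R. flavefaciens* group (95% interval -0.24 to -0.04, limma adjusted p = 0.114). Averaged over both drug conditions the bacterium gave 0.13 (limma adjusted p = 0.0983) and, averaged over both bacterial conditions, duloxetine gave -0.11 (limma adjusted p = 0.122). DESeq2 on the recovered reads called *Atf4* higher with *R. flavefaciens* (adjusted p = 0.0333), where it called 3.32% of all genes, and in the average over both drug conditions (adjusted p = 0.0223), where it called 2.41%. With the trend on transcript length removed the *R. flavefaciens* difference was 0.09 (limma adjusted p = 0.457). In limma the adjusted p for *R. flavefaciens* against control passed in 1 of 24 fits that left out 1 mouse, without 8_3 (0.044), and was 0.388 without mice 8_4 and 9_3, where the difference was 0.18.

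*Ddit3* (chr10:127290774-127296288, + strand) encodes CHOP, a factor that is induced late in the response and linked to cell death. It had 222, 227 and 275 normalized counts in control mice (lowest, median, highest), 214, 254 and 294 with duloxetine, 257, 267 and 285 with *R. flavefaciens*, and 217, 247 and 302 in the combined group. The *R. flavefaciens* mice were the tightest group, and all 6 lay above 5 of the 6 controls. The log2 difference against control was 0.20 with *R. flavefaciens* (95% interval 0.04 to 0.35, limma adjusted p = 0.155), and it was 0.24 (limma adjusted p = 0.11) without control mouse 3_1, which at 275 stood far from the other controls. With duloxetine it was 0.10 and in the combined group 0.08, both with intervals that include 0. With the trend on transcript length removed, the *R. flavefaciens* difference was 0.09, and without mice 8_4 and 9_3 it was 0.19.

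No kinase of eIF2 passed in limma. *Eif2ak4* (chr2:118388618-118475234, + strand) encodes GCN2, which senses uncharged tRNA when amino acids run short. Its lowest, median and highest normalized counts were 296, 334 and 354 in control mice, 273, 299 and 323 with duloxetine, 219.8, 298 and 315 with *R. flavefaciens*, and 261, 291 and 329 in the combined group. No treated mouse reached the control median, and every treated mouse lay below the control mean. Each treated group overlapped the controls, and below the lowest control lay 3 of 6 duloxetine, 2 of 6 *R. flavefaciens* and 3 of 6 combined mice. The log2 differences against the same 6 controls were -0.15 with duloxetine (95% interval -0.31 to -0.00), -0.22 with *R. flavefaciens* (95% interval -0.38 to -0.07) and -0.18 in the combined group (95% interval -0.33 to -0.03), with limma adjusted p of 1.00, 0.11 and 0.23. Without *R. flavefaciens* mouse 9_3, the lowest of all, the difference for that group was -0.15 (limma adjusted p = 0.356), and without mice 8_4 and 9_3 it was also -0.15.

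*Eif2ak3* (chr6:70844515-70905245, + strand) encodes PERK, which senses unfolded proteins in the endoplasmic reticulum (ER). Control mice had 387, 414 and 441 normalized counts (lowest, median, highest), duloxetine mice 381, 396 and 441, *R. flavefaciens* mice 347, 409 and 427, and combined mice 338, 383 and 397. Of the combined mice, 4 of 6 lay below the lowest control. The log2 difference of the combined group against control was -0.15 (95% interval -0.28 to -0.03, limma adjusted p = 0.201), and those of duloxetine, -0.04, and of *R. flavefaciens*, -0.06, had intervals that include 0. The latter turned to 0.00883 without mice 8_4 and 9_3. The other kinases of eIF2 did not pass either. *Eif2ak1*, which encodes the heme-regulated kinase HRI, differed by -0.11 in the combined group against control (limma adjusted p = 0.256), and *Eif2ak2*, which encodes the double-stranded RNA sensor PKR, by 0.21 (limma adjusted p = 0.315).

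**Figure D3:**
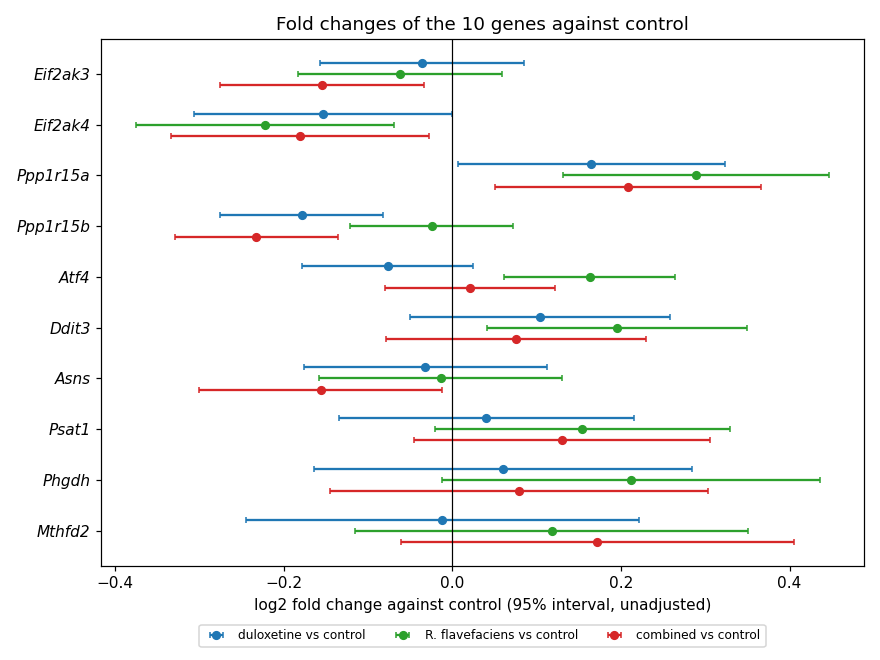
Log2 fold change against control (x axis, points) with its unadjusted 95% interval (lines) for the 10 genes (y axis) in the duloxetine, *R. flavefaciens* and combined groups, 6 mice each, from the limma fit. All 3 comparisons share the same 6 controls. *Ppp1r15b* was -0.18 with duloxetine, -0.02 with *R. flavefaciens* and -0.23 in the combined group, and all 3 points of *Ppp1r15a* lie right of 0 and all 3 of *Eif2ak4* left of it.

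The biosynthetic enzymes are known targets of ATF4. *Asns* (chr6:7675169-7693254, - strand) encodes asparagine synthetase, whose promoter holds a well-studied element for ATF4 and C/EBP factors. A composite motif of these factors, TGATGNAA, was searched on both strands of the same windows. It was in 3.97% of all 32851 windows and, among the 9 members matched, in *Asns* only. The match is shown for its place in a textbook target. It lies at chr6:7693214-7693243 on the - strand, inside the span that the table gives for the gene. The motif, in capitals, begins 23 bases before the RefSeq start.
Asns: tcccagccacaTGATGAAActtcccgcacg

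*Asns* had 1110.1, 1176 and 1246 normalized counts in control mice (lowest, median, highest), 1079, 1136 and 1251 with duloxetine, 991, 1193 and 1280.1 with *R. flavefaciens*, and 886, 1058 and 1231 in the combined group. In the combined group 3 of 6 mice lay below the lowest control and the others within the control range. Its log2 difference against control was -0.16 in the combined group (95% interval -0.30 to -0.01, limma adjusted p = 0.264), -0.03 with duloxetine and -0.01 with *R. flavefaciens*, which was 0.01 without mice 8_4 and 9_3. In the *R. flavefaciens* group the differences against control were 0.16 for *Atf4* and -0.01 for *Asns*. The other enzymes among the members had 0.21 (*Phgdh*), 0.15 (*Psat1*) and 0.12 (*Mthfd2*) there, and none of these genes passed in limma.

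*Phgdh* (chr3:98313170-98339990, - strand) and *Psat1* (chr19:15904678-15947337, - strand) encode the enzymes of the first steps of serine synthesis, which in the brain are known to be strong in astrocytes. *Phgdh* had 446, 494 and 519 normalized counts in control mice (lowest, median, highest), 432, 515 and 611 with duloxetine, 469, 561 and 718 with *R. flavefaciens*, and 404, 512 and 709.7 in the combined group. *Psat1* had 1241, 1287 and 1344 in control mice, 1106, 1296 and 1609 with duloxetine, 1323, 1436 and 1578 with *R. flavefaciens*, and 1100.0, 1484 and 1744 in the combined group. The coefficient of variation of *Phgdh* was 5.11 percent in control mice and between 13.3 and 20.4 percent in the treated groups, and that of *Psat1* was 3.38 percent in control mice and between 6.35 and 15.9 percent in the treated groups. Over all genes tested, the median absolute log2 difference of a mouse from its group was 0.0671 to 0.0861 in controls and 0.0742 to 0.0940 with duloxetine. It was 0.0987 to 0.164 with *R. flavefaciens* and 0.0897 to 0.123 in the combined group, so wider spread was not particular to these enzymes. With *R. flavefaciens* the log2 differences against control were 0.21 for *Phgdh* (95% interval -0.01 to 0.44, limma adjusted p = 0.284) and 0.15 for *Psat1* (95% interval -0.02 to 0.33, limma adjusted p = 0.321), and without mice 8_4 and 9_3 they were 0.09 and 0.11.

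*Mthfd2* (chr6:83305691-83325908, - strand), an enzyme of the mitochondrial folate cycle, had the lowest level per kilobase of exon of the list, 20.7 mean normalized counts. It had 56.5, 69.9 and 77.8 normalized counts in control mice (lowest, median, highest), 57.2, 67.3 and 81.8 with duloxetine, 62.0, 70.7 and 105 with *R. flavefaciens*, and 70.7, 75.8 and 83.9 in the combined group. All 6 combined mice lay above the control mean, and the groups overlapped. The log2 difference of the combined group against control was 0.17 (95% interval -0.06 to 0.41, limma adjusted p = 0.445). The difference for *R. flavefaciens*, 0.12, was 0.02 without mouse 9_2, the mouse at 105, and 0.19 without mice 8_4 and 9_3.

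Between mice of the same group the 10 genes did not vary as 1 block. With group means removed, the median Pearson r over their 45 pairs was -0.01, beside -0.00 between these genes and all others, and 8.89 percent of the pairs had r of at least 0.5, beside 5.78 percent. These correlations are over 24 mice that share their libraries, depth and tissue makeup, and are a description. *Psat1* and *Phgdh* were the closest pair (r = 0.88, rho = 0.85), and only 11 of the genes tested stood closer to *Psat1*. *Asns* ran against both, with r = -0.79 to *Phgdh* (rho = -0.73) and -0.70 to *Psat1* (rho = -0.70). Without the 2 mice farthest from the median of the first gene these were 0.82, -0.68 and -0.57. *Atf4* and *Asns* had r = 0.48 (rho = 0.52), *Ppp1r15b* and *Mthfd2* 0.60 (rho = 0.59), and *Ddit3* and *Phgdh* 0.61 (rho = 0.55), which was 0.33 without its 2 farthest mice.

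**Figure D4:**
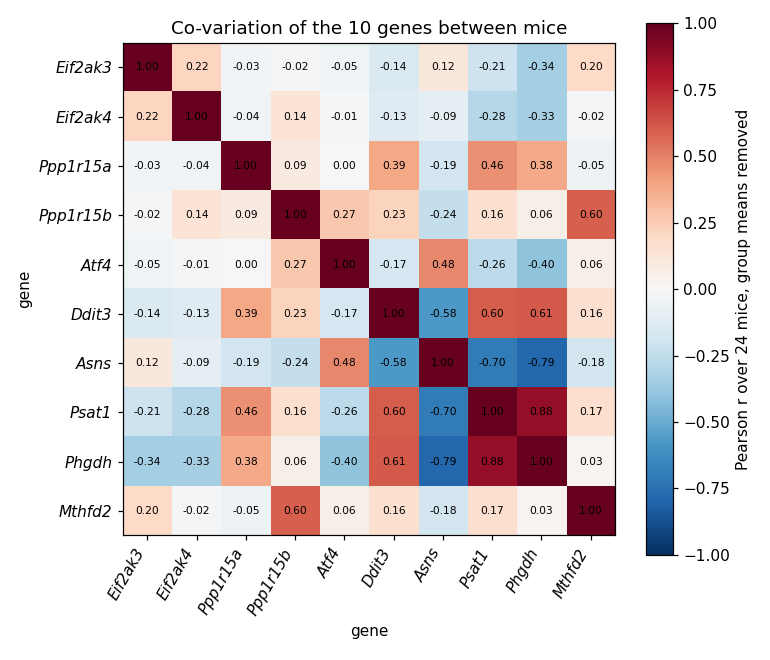
Pearson r (colour and printed value) between each pair of the 10 genes (both axes) over 24 mice, computed on log2 values after the group means were taken off. *Psat1* and *Phgdh* form the darkest red pair at 0.88, and *Asns* is blue against both, at -0.70 and -0.79.

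Glial and blood markers moved with the serine enzymes between mice. The summed counts of 10 oligodendrocyte markers, led by *Mbp*, ran from 13262 to 56385 per mouse, with 16097 to 41259 in controls, 17277 to 49729 with duloxetine, 14200.3 to 49551 with *R. flavefaciens* and 13262 to 56385 in the combined group. Their correlation with *Psat1* was r = 0.79 (rho = 0.82), with *Phgdh* 0.79 (rho = 0.78) and with *Asns* -0.66 (rho = -0.71), over 24 mice with group means removed. For 10 microglial markers, led by *Csf1r*, r was 0.85 with *Psat1* and 0.81 with *Phgdh*. For 10 astrocyte markers, led by *Slc1a2*, it was 0.68 and 0.56, and for 5 blood markers, led by *Hbb-bs*, it was 0.67 and 0.73. *Asns* had r of -0.74 with astrocyte and -0.78 with blood markers. None of the markers in these lists was at 0 in any group. The part of these cells in the values was not tested, and in bulk tissue fewer cells of a type cannot be told apart from less RNA per cell.

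*Ppp1r15b* moved less with these lists, with r of 0.38 to oligodendrocyte, 0.40 to astrocyte, 0.04 to microglial and 0.13 to blood markers. *Ppp1r15a* had r = 0.50 with microglial markers, whose sum was 4753 ± 268 in control mice, 5275 ± 512 with duloxetine, 5425 ± 457 with *R. flavefaciens* and 5575 ± 743 in the combined group (SD, n = 6 each). *Ddit3* had r = 0.59 (rho = 0.48) with them, 0.52 (rho = 0.59) with blood markers, 0.46 with oligodendrocyte and 0.43 with astrocyte markers. For *Atf4* r was -0.04 with microglial, -0.39 (rho = -0.44) with oligodendrocyte, -0.44 (rho = -0.36) with striatal, -0.30 with blood and -0.07 with astrocyte markers. Blood marker sums were 349 ± 65.7 in control mice, 462 ± 265 with duloxetine, 598 ± 204 with *R. flavefaciens* and 633 ± 351 in the combined group (SD, n = 6 each). Among the microglial markers, *C1qb*, a complement subunit, had the smallest p against control, with 0.39 for *R. flavefaciens* (limma adjusted p = 0.073), followed by *C1qa*. No gene of any marker list passed in limma in any comparison, and 6 of 10 microglial and 4 of 5 blood markers were higher at an unadjusted p under 0.05 with *R. flavefaciens* against control, beside 19.6% of all genes in either direction. In the combined group against control 8 of 10 and 5 of 5 were, beside 16.8%. Without mice 8_4 and 9_3 the counts with *R. flavefaciens* were 3 of 10 and 0 of 5, beside 9.15% of all genes, and *C1qb* was at 0.28 (limma adjusted p = 0.461). With all mice, DESeq2 called *C1qa* and *C1qb* higher in that comparison and in the *R. flavefaciens* average, beside 3.32% and 2.41% of all genes. It also called *C1qa* in the combined group against control, beside 1.45%, and edgeR called neither. How far these sums bear on *Ppp1r15a*, *Ddit3* and *Atf4* was not tested.

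The neuronal markers nearest to passing, all for *R. flavefaciens* against control, were *Slc17a6*, a glutamate transporter, at -0.51 (limma adjusted p = 0.0727), *Sst*, the somatostatin gene, at 0.34 (0.0727), *Pvalb*, the parvalbumin gene, at 0.44 (0.0875), and *Nrgn* at 0.19 (0.182). There the excitatory list ran from -0.51 to 0.19 with a median of -0.05, and the inhibitory list from -0.04 to 0.44 with a median of 0.08. In the same comparison *S100b* and *Gjb6* led the astrocyte markers with 0.30 and 0.27, *Hbb-bt* and *Hbb-bs* the blood markers with 0.90 and 0.75, *Ttr* and *Clic6* the choroid plexus markers with 3.34 and 0.98, and *Penk* and *Adora2a* the striatal markers with 0.56 and 0.73. The astrocyte list also reached down to -0.12 and the striatal list to -0.31, and 0 of 8 striatal markers had an unadjusted p under 0.05. The mean astrocyte sum was 69250 with *R. flavefaciens* and 70653 in control mice. *Rgs5* and *Kcnj8* led the endothelial markers with 0.30 and 0.45 in the combined group against control, where that list reached down to -0.15. The oligodendrocyte markers had no gene under an unadjusted p of 0.05 in any comparison, with *Olig2* at 0.29 in the combined group and *Olig1* at 0.11 with *R. flavefaciens*. Against control, DESeq2 called *S100b*, *Sst* and *Pvalb* higher with *R. flavefaciens*, beside 3.32% of all genes, and *Rgs5* in the combined group, beside 1.45%. It called the first 3 also in the *R. flavefaciens* average, beside 2.41%, and edgeR called no marker. Without mice 8_4 and 9_3 the *R. flavefaciens* values were 1.69 for *Ttr*, 0.20 for *Penk*, 0.29 for *Adora2a*, 0.20 for *S100b*, 0.61 for *Hbb-bt* and -0.02 for *Olig1*, and none of these markers passed in limma. Of 8 striatal markers 4 were then above 0 and 4 below, with a median of -0.06. *Drd1* was at -0.48 (limma adjusted p = 0.459) and *Rgs9* at -0.46 (0.523). Of 10 astrocyte markers 6 were above 0 and 4 below, with *Sox9* at -0.16. Of 8 excitatory markers 4 were above 0 and 4 below, and of 8 inhibitory markers 6 were above and 2 below. The choroid plexus marker *Kl* was at -0.24.

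For each member, the gene outside the list with the most similar course over the 24 mice (Pearson r of log2 values, group means removed) was *Hepacam* for *Psat1* (0.92), *Pbxip1* for *Phgdh* (0.92), *Ndrg4* for *Asns* (0.88) and *Plec* for *Eif2ak4* (0.82). For *Atf4* it was *Ube2g1* (0.81), for *Ddit3* *Gpr4* (0.81), for *Mthfd2* *Slc43a2* (0.81) and for *Eif2ak3* *Ptpra* (0.80). *Ppp1r15b* was closest to *Dnajc24* (0.77) and *Ppp1r15a* to *Kifc3* (0.74), the lowest of these values. *Hepacam* encodes an adhesion protein of astrocytes.

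The other genes of the pathway were taken from lists that were also drawn up with earlier results known. Of 19 genes of the eIF2 machinery, 1 passed in limma, in a comparison where 2.23% of all genes did. *Ppp1cc* encodes a catalytic subunit of protein phosphatase 1, with which PPP1R15 proteins form their complex. It had 2289 to 2505 normalized counts in the *R. flavefaciens* group and 2038 to 2279 in the combined group. *Ppp1cc* was picked by this comparison and did not overlap between these groups, as for 1.44% of all genes. It fell by 0.14 in the combined group against the *R. flavefaciens* group (SE 0.0382, limma adjusted p = 0.0452), a call that DESeq2 also made and edgeR did not. The call of limma was kept in 7 of the 24 fits that left out 1 mouse, those without 3_1, 5_1, 6_2, 6_3, 8_4, 10_2 or 12_4, and lost in the other 17, with an adjusted p of at most 0.126. Without mice 8_4 and 9_3 together it was 0.0261. DESeq2 also called *Eif5*, a factor that acts with eIF2 in start codon selection, higher in that comparison, where limma gave 0.14 (adjusted p = 0.0851), and 0.09 (adjusted p = 0.228) without mice 8_4 and 9_3. The median of the list there was -0.06. Nearest to passing against control were *Impact*, whose product inhibits GCN2 activation, at -0.20 in the combined group (limma adjusted p = 0.123), and *Eif2s2*, the beta subunit of eIF2, at 0.20 with *R. flavefaciens* (limma adjusted p = 0.094), where DESeq2 called it higher. The latter was 0.13 (limma adjusted p = 0.507) without mice 8_4 and 9_3.

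Of 11 further regulators induced by the response, 0 passed in limma in any comparison, and at an unadjusted p under 0.05 there were 2 in the combined group against control, 1 higher and 1 lower, beside 16.8% of all genes. *Ddit4*, also called REDD1, an inhibitor of the growth kinase mTORC1, came closest. It had 307 to 467 normalized counts in control mice, 339 to 688 with duloxetine, 280.4 to 503 with *R. flavefaciens* and 432 to 686 in the combined group, with a log2 difference of 0.60 for the combined group (SE 0.144, limma adjusted p = 0.072) and of 0.40 for the duloxetine average (SE 0.102, limma adjusted p = 0.0507). DESeq2 called *Ddit4* higher in both comparisons and edgeR in the second.

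*Nupr1*, a small stress-induced chromatin protein, was at 0.71 with *R. flavefaciens* (limma adjusted p = 0.157) from low counts, 20.2 ± 8.07 in control mice and 33.4 ± 14.9 with *R. flavefaciens* (SD, n = 6 each). The difference was 0.47 without control mouse 3_1, which had 7.42 normalized counts, and 0.83 without mice 8_4 and 9_3.

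Among 9 amino acid transporters 1 passed in limma, beside 2.23% of all genes in that comparison. *Slc3a2* encodes the heavy chain shared by several exchangers of large and branched amino acids. It had 1519 to 1767 normalized counts with *R. flavefaciens* and 1315 to 1499.7 in the combined group. *Slc3a2* was picked by this comparison and did not overlap between these groups, as for 1.44% of all genes. It fell by 0.17 between them (SE 0.0453, limma adjusted p = 0.0447). DESeq2 and edgeR made the same call, and DESeq2 also in the duloxetine average. In limma it was kept in 8 of the 24 fits that left out 1 mouse, those without 2_3, 3_1, 5_1, 5_4, 6_3, 8_3, 8_4 or 10_2, and lost in the other 16. It was also lost without mice 8_4 and 9_3 together, where the difference was -0.13 (limma adjusted p = 0.0945). *Slc7a1* and *Slc7a3*, carriers of cationic amino acids, were the nearest to passing against control, with -0.16 and -0.27 for *R. flavefaciens* (limma adjusted p = 0.157 and 0.204), and with -0.08 and -0.20 without mice 8_4 and 9_3.

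Of 14 enzymes of serine, folate and proline metabolism, 1 passed in limma, in 3 comparisons where 2.23%, 0.1% and 1.03% of all genes did. *Mthfd1l*, which makes formate in mitochondria in the step that follows *Mthfd2*, had 266 to 351 normalized counts in control mice, 250.5 to 299 with duloxetine, 288 to 320.2 with *R. flavefaciens* and 218 to 245 in the combined group, which lay below all other mice. It fell by 0.40 in the combined group against the *R. flavefaciens* group (SE 0.0638, limma adjusted p = 0.0062), where the adjusted p was 0.00881 without mice 8_4 and 9_3. It was also called lower in the combined group against control, at -0.45, and in the duloxetine average, at -0.30, by limma, edgeR and DESeq2, and limma kept all 3 calls in all 24 fits that left out 1 mouse. DESeq2 also called it lower in the *R. flavefaciens* average. *Mthfd2* in the combined against the *R. flavefaciens* group was 0.05 (95% interval -0.18 to 0.29), did not pass, and was -0.02 without mice 8_4 and 9_3. *Cbs*, which starts the conversion of homocysteine to cysteine, was at 0.30 in the combined group against control (limma adjusted p = 0.198).

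Of 20 cytosolic tRNA synthetases 1 passed in limma, in the duloxetine average, where 1.03% of all genes did. *Yars* had 1210.1 to 1277 normalized counts in control mice, 1136 to 1240.0 with duloxetine, 1167 to 1397 with *R. flavefaciens* and 1059 to 1212 in the combined group, and was lower in the average for duloxetine, by -0.12 (SE 0.0307, limma adjusted p = 0.0454), a call that DESeq2 also made and edgeR did not. In limma it was kept in 9 of the 24 fits that left out 1 mouse, those without 1_1, 5_1, 5_4, 8_3, 8_4, 9_2, 10_2, 12_2 or 12_4, and lost in the other 15. The median over the 20 genes was -0.06 in that comparison, and at an unadjusted p under 0.05 there were 5 lower and 1 higher, beside 14.9% of all genes. In the combined against the *R. flavefaciens* group 8 were lower and 0 higher at that level, beside 19.7%. DESeq2 called *Yars* and *Hars*, at -0.18 in limma (adjusted p = 0.0554), lower there, beside 4.07% of all genes. *Iars* and *Aars* were at -0.20 and -0.13 in the combined group against control (limma adjusted p = 0.133 and 0.165). The synthetases are known targets of ATF4, as are several of the transporters.

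The unfolded protein response has other arms beside PERK, run by IRE1 with XBP1 and by ATF6, and 23 of their genes were tested. Of 23 genes 6 were lower in the combined group than in the *R. flavefaciens* group, beside 1.16% of all genes called lower there, and 0 were higher in limma, edgeR or DESeq2. At an unadjusted p under 0.05 there were 14 lower and 1 higher, beside 19.7% of all genes, and the median of the list was -0.16. *Sdf2l1*, a component of the ER chaperone complex, had 178 to 276 normalized counts with *R. flavefaciens* and 110.3 to 179 in the combined group, and fell by 0.75 (SE 0.159, limma adjusted p = 0.0171). *Manf*, a secreted neurotrophic factor of the ER, had 634 to 854 and 503 to 609 and fell by 0.37 (SE 0.0863, limma adjusted p = 0.0267).

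The transcription factor *Xbp1* fell by 0.32 (limma adjusted p = 0.031), *Pdia6*, a disulfide isomerase, by 0.33 (0.0322), *Herpud1*, a part of ER-associated degradation, by 0.30 (0.0452) and *Dnajb11*, a cochaperone, by 0.24 (0.0439), all by limma adjusted p. *Manf* and *Pdia6* did not overlap between these groups, beside 1.44% of all genes, and the other 4 did. The 6 genes were picked by this same comparison, so this adds no separate evidence. Against control, 0 of 23 passed in any group in limma or edgeR. DESeq2 called 1, *Mbtps2*, lower with *R. flavefaciens*, where it called 3.32% of all genes in either direction. In the duloxetine average limma and edgeR called 0 of 23. DESeq2 called *Manf*, *Pdia6* and *Sdf2l1* lower in that average, beside 2.12% of all genes in either direction. There 20 of 23 were below 0, with a median of -0.10, and at an unadjusted p under 0.05 there were 11 lower and 1 higher, beside 14.9% of all genes. All 23 log2 differences of the combined group against control were below 0, with a median of -0.14 and 8 genes at an unadjusted p under 0.05, beside 16.8% of all genes, while for *R. flavefaciens* 14 were above 0 and 9 below, with a median of 0.03. For duloxetine alone against control 19 were below 0, with a median of -0.03 and 0 genes at that level, beside 3.83% of all genes. For the combined against the duloxetine group 21 were below 0, with a median of -0.10 and 3 genes lower at that level, beside 5.9%. *Sdf2l1* was at -0.49 in the combined group and at 0.25 with *R. flavefaciens*, both against the same controls and neither past the threshold. *Mbtps2*, a protease that activates ATF6, was at -0.24 with *R. flavefaciens* against control (limma adjusted p = 0.0875), and at -0.15 without mice 8_4 and 9_3.

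The count of 6 rested on particular libraries. It was 0 without combined mouse 11_3, 1 without *R. flavefaciens* mouse 9_1, 2 without combined mouse 12_2 and 3 without combined mouse 10_2, between 0 and 8 over all 24 mice left out in turn, and 6 without mice 8_4 and 9_3 together, where *Xbp1* no longer passed (limma adjusted p = 0.0556) and *Hspa5*, the chaperone BiP, did (0.0466). It was 8 in DESeq2, beside 2.08% of all genes called lower by that tool, and 7 in edgeR, beside 1.04%. It was 0 when only both groups were fitted in limma and 3 after removal of the trend with transcript length. Of the 6 genes, *Sdf2l1* lost its call without 11_3, *Manf* without 9_1 or 11_3, *Xbp1* without 9_1, 10_2, 11_3 or 12_2, and *Pdia6* without any of these or 7_2. *Herpud1* lost it in 13 of the 24 fits that left out 1 mouse, and kept it without 1_1, 3_1, 3_3, 5_1, 5_3, 5_4, 6_2, 7_2, 8_4, 10_2 or 12_4. *Dnajb11* lost it in 14, and kept it without 2_3, 3_1, 3_3, 5_1, 5_3, 5_4, 6_2, 8_4, 9_3 or 12_4.

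**Figure D5:**
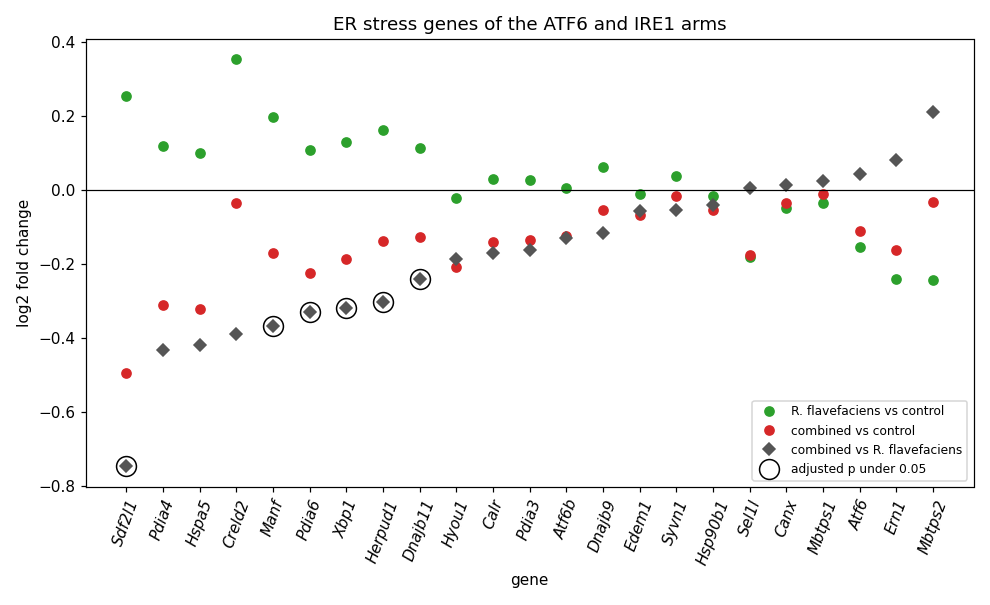
Log2 fold changes (y axis) of 23 genes of the ATF6 and IRE1 arms (x axis, ordered by the combined against the *R. flavefaciens* group) for *R. flavefaciens* against control, the combined group against control and the combined against the *R. flavefaciens* group (diamonds). Circles mark the 6 genes with a limma adjusted p under 0.05, led by *Sdf2l1* at -0.75.

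Promoters of this list were searched with the ER stress element, CCAAT and CCACG with 9 unspecified bases between them, on both strands of the same windows. It was in 0.119% of 32851 windows and in 7 of the 20 genes of the list matched by symbol, *Hspa5*, *Calr*, *Hsp90b1*, *Canx*, *Pdia6*, *Creld2* and *Syvn1*, and in none of the 9 stress response genes matched. Of the 6 genes called, *Pdia6* had it, at chr12:17266486-17266514 on the + strand, beginning 98 bases before the start. *Herpud1* had the ATF4 and C/EBP composite instead, read on the other strand, at chr8:94386306-94386335 on the + strand, beginning 112 bases before the start. Both are shown, with the motif in capitals, as the called genes of this list that hold one of the motifs searched.
Pdia6: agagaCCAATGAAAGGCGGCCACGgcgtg
Herpud1: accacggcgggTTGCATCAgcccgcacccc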

How the data were processed

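Poly(A) RNA of 24 mPFC samples was sequenced. Per the labels and the methods, the authors mapped reads with TopHat2 2.1.0 and Bowtie2 2.2.6 and normalized gene counts with DESeq2 1.18.1. The submitters' processing notes name mm9 and the methods GRCm38.p5. The gene positions in the table match GRCm38 (14253 of 15438 IDs at the same position as in GENCODE vM21). The counter, the strand setting and the gene filter are not given in the sources used here. Without a known strand setting, reads of overlapping antisense genes could not be told apart. The deposited signal values are counts divided by 1 size factor per mouse. Of 370875 values above 0, 99.997 percent were whole multiples of a step per column within a tolerance of 0.0051, and these recovered reads gave the depth. No column was left out.

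Values were tested with limma 3.58.1 (R 4.3.3) on log2(normalized count + 1), in 1 two-sided fit over all 24 mice, with an intensity trend in the prior and genes below a mean of 10 left out, and with Benjamini-Hochberg adjustment over 14974 genes within each of 8 comparisons and a threshold of 0.05. A fold change on this scale understates that of low genes. Alternatives set the pseudocount to 0.1, dropped the filter or raised it to 50, used quantile normalization or rescaled to the 75th percentile, fitted only the groups compared, treated the first label number as a random block, subtracted a loess curve on exon length (span 0.3), and used DESeq2 1.42.0 and edgeR 4.0.16 on recovered reads. Each mouse was also left out in turn. Leaving out mice 8_4 and 9_3 together, for members and list genes, the ER gene count under every alternative, the list genes with each mouse left out, and the motif searches were added after seeing the data. Fits were tested on simulated data. Correlations were computed in Python 3.11.15 with numpy 2.4.6 and scipy 1.17.1. The 60 pairs of mice within a group differed beyond counting error (chi-square per degree of freedom 2.07 to 25.9), so each counted as 1 replicate. Per the study's methods the mice were housed in groups, and the labels do not say which mice shared a cage.

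Members and lists were chosen with earlier results of these data known. The text names all 10 members, from each other list every gene past the threshold and the 2 with the smallest p against control, and for each member the gene with the highest correlation. *Eif2ak1*, *Eif2ak2*, *Eif5*, *Hars*, *Hspa5* and the genes with promoter matches were named outside this rule, after their values were seen. Promoter sequences came from RefSeq (GRCm38.p6).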

Additional observations from a re-analysis of the deposited data

Results flagged for a closer look

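In 44 groups of 6 values, the highest or lowest mouse was compared with its neighbours, and chance marks about 1 in 20 such groups. The gap of 4 mice to the nearest other mouse was a large share of the range of their group. Duloxetine mouse 5_4 was low for *Ppp1r15a*, with 115.41 normalized counts. Control mouse 3_1 was high for *Ddit3*, with 275.45. *R. flavefaciens* mouse 9_3 was low for *Eif2ak4*, with 219.79, and *R. flavefaciens* mouse 9_2 was high for *Mthfd2*, with 104.54. Without mouse 5_4 the log2 difference of *Ppp1r15a* between duloxetine and control was 0.22 in place of 0.16 (limma adjusted p = 0.883).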

How the results depend on the processing

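Every log2 fold change of a member that passed the test kept its direction in all alternatives run. *Ppp1r15b* kept its call in the average for duloxetine throughout. The call in the combined group against control was lost, leaving 0 members called, under quantile normalization and under rescaling to the 75th percentile, and that against the *R. flavefaciens* group when only the groups compared were fitted (0). For *R. flavefaciens* against control 1 member was called with the random block (*Ppp1r15a*) and 1 in DESeq2 (*Atf4*), which also called 1 in the average over both drug conditions. With the length trend removed the member median was 0.0853 for *R. flavefaciens* against control and 0.0459 in that average. The causes were not tested.

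Counts over all genes moved more. DESeq2 called 1 gene for duloxetine, 497 for *R. flavefaciens* and 217 for the combined group against control, 1 for the combined against the duloxetine group, 610 against the *R. flavefaciens* group, 317 in the duloxetine average and 361 in the *R. flavefaciens* average. The random block gave 221 for *R. flavefaciens*, 59 for the combined group, 533 for the combined against the *R. flavefaciens* group and 255 in the duloxetine average. With only the groups compared the counts were 0 for *R. flavefaciens*, 196 for the combined group and 0 for the combined against the *R. flavefaciens* group, with 0 ER stress genes. With the length trend removed they were 1, 71 and, in the *R. flavefaciens* average, 7, with 3 ER stress genes. Without mice 8_4 and 9_3 they were 0 for *R. flavefaciens*, 339 for the combined group and 303 in the duloxetine average. A minimum mean of 50 gave 30 and the 75th percentile 23 for the combined group, and quantile normalization 2 in the *R. flavefaciens* average.

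With each mouse left out, limma called 0 to 616 genes for *R. flavefaciens* and 5 to 154 for the combined group against control, 0 to 2 for the combined against the duloxetine and 47 to 577 against the *R. flavefaciens* group, 46 to 260 in the duloxetine average and 1 to 135 in the *R. flavefaciens* average. ER stress genes called ran from 0 to 8. Members called ran from 0 to 1 for *R. flavefaciens* and the combined group against control, for the combined against the *R. flavefaciens* group and in the *R. flavefaciens* average, and the member median for *R. flavefaciens* from 0.0868 to 0.16. No paired analysis was possible because the replicate labels are not shared between groups. Averages and the interaction need all 4 groups, so fits of only the groups compared do not exist for them.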
